A study of Rattus norvegicus with 12 samples.

Results

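The genes described here are 9 regulators of the entry into the cell cycle: the Myc family (*Myc*, *Mycn*, *Mycl*), their partner *Max*, the D cyclins (*Ccnd1*, *Ccnd2*, *Ccnd3*) and the CDK inhibitors *Cdkn1a* (p21) and *Cdkn1b* (p27). They were taken by symbol from a table of 21556 genes, in which all 9 had a row. *Myc* was chosen by its measured values, a lower level with Wnt3a and a higher level again with both stimuli, so its values are a description and carry no test. The cells were ND7/23, 1 line obtained by fusing mouse neuroblastoma cells (N18Tg2) with neurons of the rat dorsal root ganglion, and the deposited values refer to rat genes. RNA was sequenced from 12 libraries, 3 in each of 4 groups, at 6 h. The groups were control cells with neither stimulus, cells stimulated with 100 μM menthol, cells stimulated with 100 ng/ml Wnt3a, and cells stimulated with both. For stimulation of these cells the paper describes a medium with antibiotics and names no serum there. Its menthol was stored in DMSO, and the labels do not say whether control cells received DMSO. Menthol is an agonist of the cold receptor TRPM8, and Wnt3a is a secreted ligand of the Wnt/β-catenin pathway. Nothing in the labels says whether replicates were separate cultures, so the p-values measure the spread between these libraries, which may be technical.

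As background, Myc proteins are short-lived transcription factors that bind DNA as dimers with Max, most often at the E-box, and drive genes of growth, ribosome synthesis and metabolism. Max also pairs with Mxd proteins, Mxi1, Mnt and Mga, which repress many of the same genes. The D cyclins bind CDK4 and CDK6, and the complexes phosphorylate the RB protein and release E2F factors, while p21 and p27 inhibit the cyclin-CDK complexes of the G1 phase. *Myc* and *Ccnd1* are textbook targets of β-catenin with TCF/LEF factors, and p21 is a textbook target of p53.

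Each library held 36914722 to 38837023 reads on genes, and values are given as FPKM, the read fragments on a gene scaled by its length and by the mapped fragments of the library. Differences between groups were tested with limma on log2(FPKM + 0.1), with Benjamini-Hochberg adjustment over the 11451 genes with a mean of at least 0.5 FPKM, and a gene passed at an adjusted p under 0.05. As a check of the Wnt3a stimulation, *Axin2*, a feedback gene of the pathway, was at 4.95 ± 0.201 FPKM in control cells and 7.10 ± 0.479 FPKM with Wnt3a (SD, n = 3 each). It rose by 0.51 on the log2 scale (adjusted p = 0.00875), although 4 of 21 other settings left its adjusted p just above the threshold, at up to 0.0563. The cells carried few transcripts of most sensory neuron markers listed. Of 16 sensory neuron markers, 14 had a mean under 0.5 FPKM, among them *Tubb3* at 0.022, *Stmn2* at 0.019 and *Nefl* at 0.061 FPKM. *Scn10a*, *Scn11a* and *Elavl4* had at most 3 reads in every library. *Trpm8*, the gene of the menthol receptor, was low as well, at 0.234 FPKM and 61 to 97 reads per library, below the minimum for the test. *Uchl1*, a neuronal ubiquitin hydrolase, was the highest of the 16 at 101.5 FPKM. *Isl1*, a transcription factor of sensory neurons, rose by 0.50 on the log2 scale with Wnt3a against control (adjusted p = 0.0121 by limma). The summed level of the 16 was 105.9 to 114.0 FPKM in control libraries and 111.5 to 122.8 with menthol. It was 114.0 to 122.1 with Wnt3a and 115.1 to 127.2 with both, so the control libraries lay below those with both stimuli. *Uchl1* and *Isl1*, the latter with a mean of 13.2 FPKM, made up nearly all of this sum. Of 8 fibroblast markers, 6 were above 0.5 FPKM, and their summed level was 340.2 to 355.2 FPKM in control libraries, 318.4 to 321.1 with menthol, 323.8 to 329.4 with Wnt3a and 309.7 to 317.1 with both. *Thy1*, at 141.1 FPKM, and the collagen gene *Col1a2*, at 114.6 FPKM, made up most of this sum. *Dcn* and *Lum* were at 0.194 and 0.0886 FPKM. *Col1a2* fell by 0.16 for both stimuli against control (adjusted p = 0.02 by limma). The control libraries lay above all others in the fibroblast sum, and the part of both sums in the results below was not tested. Muscle markers summed to 1.23 to 2.79 FPKM.

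In these cells 6 of the 9 genes had a mean of at least 0.5 FPKM and were measured well. *Ccnd1* was the highest, with a mean of 382.1 FPKM over the 12 libraries, and ranked 170 among the 21556 genes in control cells. It was followed by *Cdkn1a* at 98.3 FPKM, *Ccnd3* at 77.7 FPKM and *Max* at 48.0 FPKM, and the libraries of each of these genes lay apart from those of the next. *Myc*, at 31.9 FPKM, and *Cdkn1b*, at 31.2 FPKM, could not be ordered, since their libraries spanned 28.6 to 35.5 and 28.1 to 34.6 FPKM. Even so, *Myc* was above 89.2% of all genes in control cells. The replicate CV of these 6 genes within a group was 1.12 to 5.48%, against a counting error of 0.411 to 1.96%.

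The other 3 genes were low. *Mycl*, the family member first found in lung cancer, had 60, 47 and 35 reads in the control libraries, 51, 42 and 74 with menthol, 60, 46 and 85 with Wnt3a, and 61, 49 and 67 with both. Its mean was 0.416 FPKM, its groups overlapped in every comparison, and it was below the minimum for the test. *Ccnd2*, the cyclin D2 gene, had 16 reads in all, between 0 and 4 per library, and 10 of the 12 libraries held 3 reads or fewer. *Mycn*, the family member known for its amplification in neuroblastoma, had 1 read, in control replicate 2, and was at 0 in the other 11 libraries. A count of 0 allows up to 3 reads, so *Mycn* and most *Ccnd2* values were not detectable at this depth in the values for rat genes. No fold was computed for them. How mouse transcripts of the hybrid line were assigned is not known, so transcripts of the mouse copies may be missing from these counts. Of the reads assigned to these rat genes, *Myc* carried nearly all of its family, and *Ccnd1* with *Ccnd3* those of the D cyclins.

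**Figure D1:**
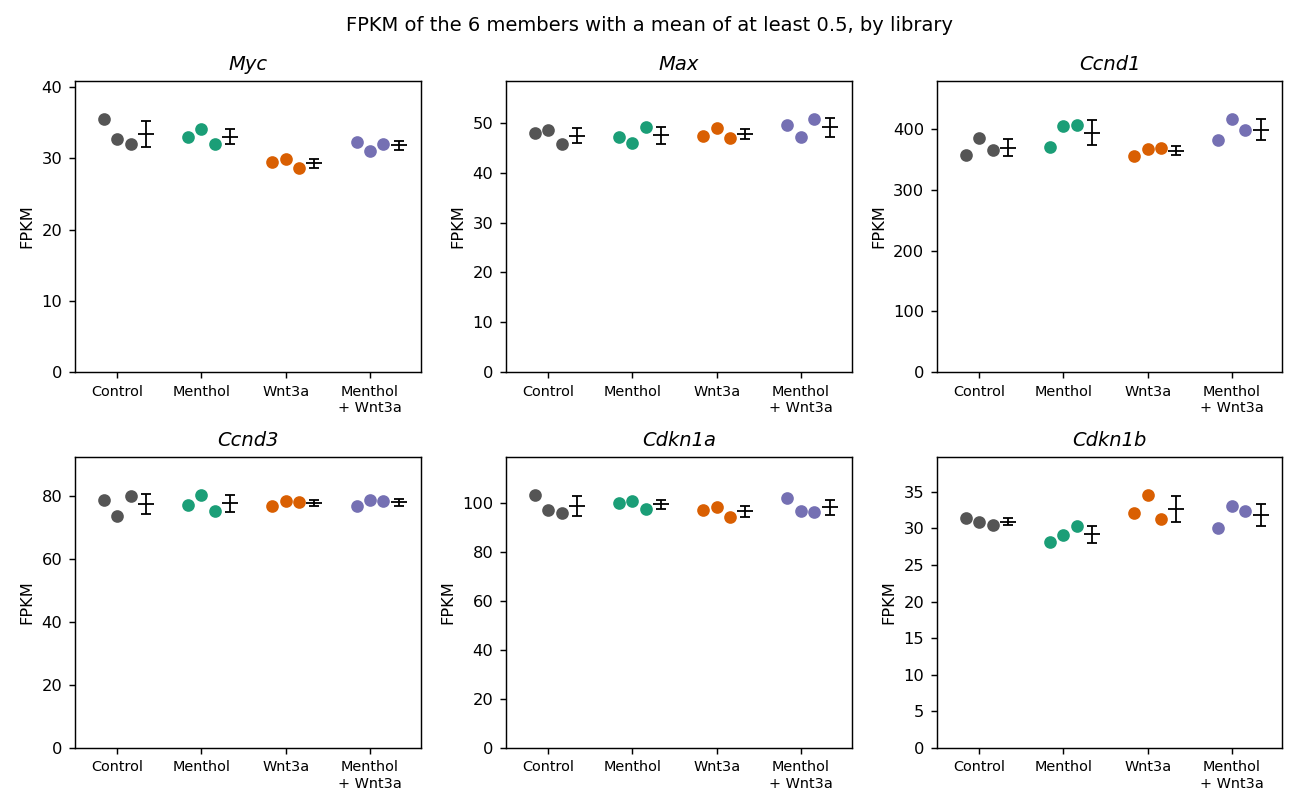
FPKM (vertical axes, from 0) of the 6 genes with a mean of at least 0.5 FPKM, by group on the horizontal axes. Each point is 1 library and the black bars give mean ± SD of 3 libraries. The Wnt3a libraries of *Myc* (28.6 to 29.9 FPKM) lie below all others, and *Ccnd3* stays between 73.8 and 80.4 FPKM.

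**Figure D2:**
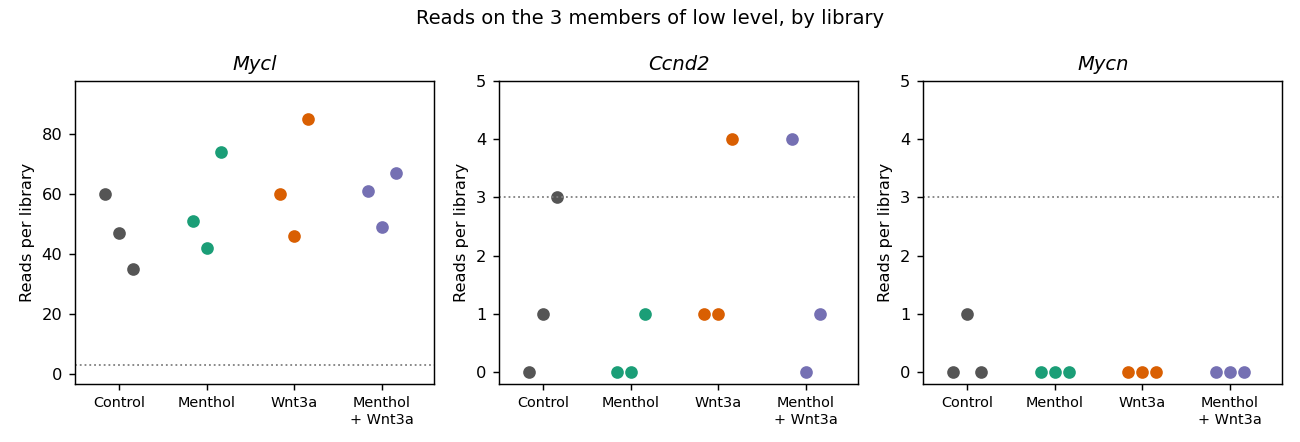
Reads per library (vertical axes) of *Mycl*, *Ccnd2* and *Mycn*, by group. Each point is 1 library and the dotted line marks the floor of 3 reads. *Mycl* had 35 to 85 reads, whereas *Mycn* had a single read in 1 of 12 libraries.

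The level of *Myc* was compared across the 4 groups first. In control libraries it was 35.5, 32.7 and 32.1 FPKM (3232, 2920 and 2903 reads), and with menthol it was 33.0, 34.1 and 32.0 FPKM. With Wnt3a it was 29.5, 29.9 and 28.6 FPKM (2659, 2583 and 2557 reads), and with both stimuli 32.4, 31.1 and 32.1 FPKM. All 3 Wnt3a libraries lay below the 9 others, and the other 3 groups overlapped with one another.

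The mean of *Myc* was 33.4 ± 1.83 FPKM in control cells, 33.0 ± 1.05 after menthol, 29.3 ± 0.639 after Wnt3a and 31.8 ± 0.665 after both (SD, n = 3 each). It was lower with Wnt3a than in control cells, with a difference of -12.3%, or -0.19 on the log2 scale. Without control replicate 1, the highest library, the log2 difference was -0.14. With both stimuli *Myc* was 8.58% higher than with Wnt3a alone, a log2 difference of 0.12, and its difference from control was -4.80%. On the log2 scale the difference from control was -0.069, and it ranged from -0.099 to -0.025 when 1 library was left out. Menthol alone differed from control by -1.22%. The fibroblast marker sum was also lower with Wnt3a than in control cells, and its part in the level of *Myc* was not tested. In bulk RNA, fewer cells that express a gene and less of its RNA per cell cannot be told apart. For scale, 451 of the 11451 tested genes (3.94%) had a difference between Wnt3a and control at least as low, and 1197 (10.5%) had one between both stimuli and Wnt3a at least as high. The median size of the difference over all tested genes was 0.064 in the first comparison and 0.063 in the second, on the log2 scale. Both differences of *Myc* use the same 3 Wnt3a libraries, so a low value in these libraries enters both.

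*Max* encodes the obligate partner of the Myc proteins. Its level was 47.9, 48.6 and 45.8 FPKM in control cells and 47.3, 46.0 and 49.3 FPKM with menthol. It was 47.5, 49.0 and 46.9 FPKM with Wnt3a and 49.7, 47.1 and 50.8 FPKM with both. The 4 groups overlapped throughout. The ratio of *Myc* to *Max*, both as FPKM, was 0.705 ± 0.0342 in control cells, 0.696 ± 0.0458 after menthol, 0.614 ± 0.00654 after Wnt3a and 0.648 ± 0.0147 after both (SD, n = 3 each). The Wnt3a libraries were the lowest of the 12 in this ratio as well, at 0.609 to 0.621, which follows from the level of *Myc* and is again a description.

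The upstream sequence of 5 of the 9 genes (*Max*, *Mycl*, *Ccnd3*, *Cdkn1a* and *Cdkn1b*) was matched in RefSeq (rat build GRCr8, another build than the mRatBN7.2 named for the deposited values). The E-box CACGTG, the site bound by Myc and Max dimers, was found in 1 of 5, that of *Max*, at positions -33 to -28 from the annotated start, and in 6.42% of 33469 rat promoters of the same length, 300 bases around the start. The TCF/LEF motif ATCAAAG was in 0 of 5 and in 3.63% of all promoters, and the E2F motif TTCCCGCC in 0 of 5 and 1.91%. Both strands were searched, the motifs do not overlap one another, and a match is a description of letters, not of a bound site. The 250 bases before the start of *Max* are shown with the E-box in capitals, beside those of *Cdkn1b*, the one of the 5 tested genes that ran most opposite to *Myc* across libraries, which held none of the 3 motifs. The windows are chr6:101395291-101395540 on the minus strand for *Max* and chr4:169491254-169491503 on the plus strand for *Cdkn1b*, both in GRCr8 and both upstream of the gene.
Max: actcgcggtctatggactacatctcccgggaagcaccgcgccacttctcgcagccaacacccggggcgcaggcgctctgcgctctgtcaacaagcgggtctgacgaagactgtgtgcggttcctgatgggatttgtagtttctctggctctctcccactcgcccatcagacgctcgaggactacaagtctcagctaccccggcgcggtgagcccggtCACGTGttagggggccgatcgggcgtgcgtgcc
Cdkn1b: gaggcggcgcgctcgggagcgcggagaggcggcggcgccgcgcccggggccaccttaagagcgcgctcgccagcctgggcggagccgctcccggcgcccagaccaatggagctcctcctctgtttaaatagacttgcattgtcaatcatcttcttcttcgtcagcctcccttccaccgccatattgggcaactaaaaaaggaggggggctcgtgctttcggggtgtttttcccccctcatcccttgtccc

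*Ccnd1* encodes cyclin D1, which activates CDK4 and CDK6. Its level was 358.1, 385.2 and 366.1 FPKM in control cells and 356.4, 368.4 and 369.5 FPKM with Wnt3a. With menthol it was 370.6, 405.7 and 406.4 FPKM, and with both stimuli 382.4, 417.1 and 399.4 FPKM. The libraries with both stimuli all lay above those with Wnt3a alone, and the groups overlapped in the other comparisons tested. The menthol libraries also lay above those with Wnt3a alone, by as little as 370.6 against 369.5 FPKM, a pair that was not tested. The means were 369.8 ± 14.0 FPKM in control cells, 394.2 ± 20.4 after menthol, 364.8 ± 7.24 after Wnt3a and 399.6 ± 17.3 after both (SD, n = 3 each).

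Between both stimuli and Wnt3a alone, *Ccnd1* differed by 9.55%, or 0.13 on the log2 scale (SE 0.042, 95% CI 0.041 to 0.22), and limma gave an adjusted p of 0.197, which did not pass. The same comparison by limma voom on reads recovered from the FPKM gave an adjusted p of 0.0476, and the range over all alternatives was 0.0476 to 0.469. Menthol differed from control by 0.092 (95% CI 0.0022 to 0.18, adjusted p = 0.527), and both stimuli from control by 0.11 (95% CI 0.022 to 0.20, adjusted p = 0.247), by limma. Wnt3a alone differed from control by -0.019 (95% CI -0.11 to 0.070, adjusted p = 0.865). The fibroblast marker sum named above was lower in both menthol groups than in the groups without menthol, and its part in these *Ccnd1* values was not tested.

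*Ccnd3*, which encodes cyclin D3, was the steadiest of the D cyclins. Its level was 78.7, 73.8 and 80.0 FPKM in control cells and 77.3, 80.4 and 75.3 FPKM with menthol. It was 76.8, 78.4 and 78.1 FPKM with Wnt3a and 76.7, 78.7 and 78.6 FPKM with both. The 4 group means lay between 77.5 and 78.0 FPKM, and every pair of groups overlapped. *Ccnd1* therefore made up 82.0 to 84.4% of the D cyclin FPKM in the 12 libraries, and *Ccnd3* 15.6 to 18.0%. The ratio of *Ccnd1* to *Ccnd3*, both as FPKM, had means of 4.78 in control cells, 5.08 with menthol, 4.69 with Wnt3a and 5.12 with both.

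*Cdkn1a* encodes p21, an inhibitor of cyclin-CDK complexes and a target of p53. It was at 103.5, 97.1 and 95.8 FPKM in control cells and at 97.3, 98.3 and 94.2 FPKM with Wnt3a. With both stimuli it was at 101.9, 96.6 and 96.3 FPKM, and with menthol at 100.0, 101.0 and 97.5 FPKM. The groups overlapped in every comparison, with means of 96.6 to 99.5 FPKM. Over *Max*, *Ccnd3* and *Cdkn1a*, the 15 differences in 5 comparisons ran from -0.032 to 0.052 on the log2 scale, with 95% limits no wider than -0.11 to 0.13 and adjusted p of 0.605 to 0.995 by limma.

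*Cdkn1b* encodes p27, the inhibitor that holds cells in quiescence. It was at 31.4, 30.9 and 30.5 FPKM in control cells and at 28.1, 29.1 and 30.4 FPKM with menthol. With Wnt3a it was at 32.1, 34.6 and 31.2 FPKM, and with both stimuli at 30.1, 33.1 and 32.4 FPKM. The menthol libraries all lay below the control libraries, by as little as 30.4 against 30.5 FPKM, while the Wnt3a libraries overlapped with control.

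Menthol differed from control in *Cdkn1b* by -5.55%, or -0.083 on the log2 scale (SE 0.046, 95% CI -0.18 to 0.017), with an adjusted p of 0.622 by limma. Wnt3a differed from control by 0.077 (95% CI -0.023 to 0.18, adjusted p = 0.471 by limma), and this ranged from 0.034 to 0.11 when 1 library was left out. Both stimuli differed from menthol by 0.12 (95% CI 0.024 to 0.22, adjusted p = 0.613). The ratio of *Cdkn1a* to *Cdkn1b*, both as FPKM, was 3.19 ± 0.0901 in control cells, 3.41 ± 0.181 after menthol, 2.96 ± 0.107 after Wnt3a and 3.09 ± 0.255 after both (SD, n = 3 each). It was thus highest on average where *Cdkn1b* was lowest.

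**Figure D3:**
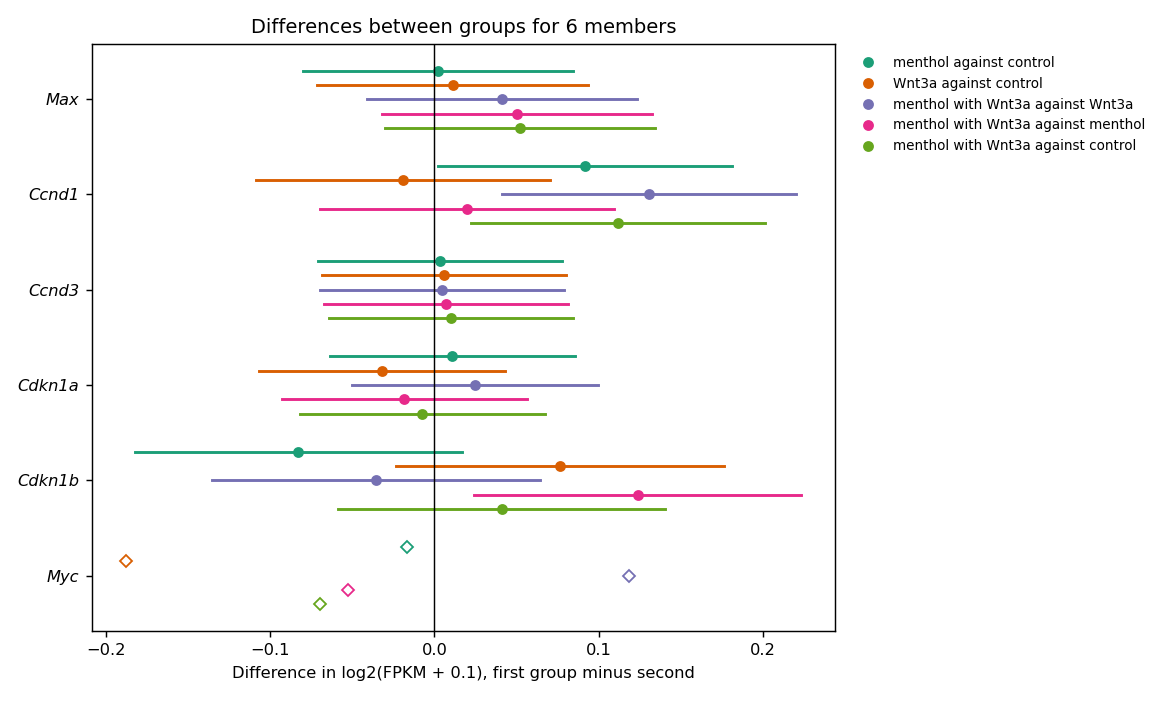
Differences in log2(FPKM + 0.1) between groups (horizontal axis, first group minus second) for 6 genes, in 5 comparisons marked by colour. Filled points carry the 95% CI of limma, and the open diamonds of *Myc* are descriptions with no interval. The intervals of *Max*, *Ccnd3* and *Cdkn1a* all cover 0, and *Myc* reaches -0.19 for Wnt3a against control.

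Counted over the 5 tested genes other than *Myc*, 0 passed the adjusted p by limma in any comparison. The share of all tested genes that passed was also low, at 0.105% for menthol and 0.437% for Wnt3a, each against control, 0.0524% for both stimuli against Wnt3a, 0.0961% for both against menthol and 0.83% for both against control. By limma voom, *Ccnd1* passed for both stimuli against Wnt3a, and none of the 5 passed in the other comparisons. The shares above are those of limma and none is given for limma voom, so this call cannot be read beside them.

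At an unadjusted p under 0.05 by limma, 1 of the 5 passed for menthol against control (*Ccnd1*), beside 9.34% of all tested genes, and 0 for Wnt3a against control, beside 15.1%. *Ccnd1* also passed for both stimuli against Wnt3a, beside 14.5% of all genes, and for both against control, beside 13.5%, and *Cdkn1b* for both against menthol, beside 6.72%. Groups did not overlap for 1 of the 5 genes for menthol against control (*Cdkn1b*, beside 15.9% of all tested genes) and for both stimuli against Wnt3a (*Ccnd1*, beside 17.7%). They overlapped for all 5 genes for Wnt3a against control (20.2% of all genes apart), both against menthol (11.3%) and both against control (20.5%). These counts of 0 or 1 of 5 do not stand apart from those shares.

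The interaction asks whether the effect of both stimuli differed from the sum of the effects of each. Over the 5 genes it ran from 0.0013 to 0.047 on the log2 scale, with adjusted p of 0.897 to 0.997 by limma. None of the 5 passed at either level, beside 0% of all tested genes at the adjusted p and 6.99% at the unadjusted p. For *Myc* the interaction was 0.14, as a description. The comparisons share groups, so a group's libraries enter several of them.

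The genes were then followed library by library. Across the 12 libraries *Cdkn1a* went with *Myc* most closely, with Pearson's r = 0.73 and Spearman's rho = 0.64. Without the 2 libraries farthest from the median of *Myc* (Wnt3a replicate 3 and control replicate 1), r was 0.42, so the relation rested in part on them. Taken as deviations from the group means, r was 0.89, so within groups, too, libraries with more *Myc* had more *Cdkn1a*. Over all tested genes, 2.61% had an r with *Myc* at least as far from 0 as that of *Cdkn1a*.

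*Cdkn1b* ran the other way, with r = -0.50 and rho = -0.53 over the 12 libraries, and r was -0.79 without the same 2 libraries. Its deviations from the group means gave r = 0.056, so the opposite trend lay between groups and not within them. *Ccnd1* had r = 0.16, *Ccnd3* 0.096 and *Max* -0.0045. These are 5 correlations over 12 libraries in 4 groups, the points share the scaling of each library, and no p was computed.

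**Figure D4:**
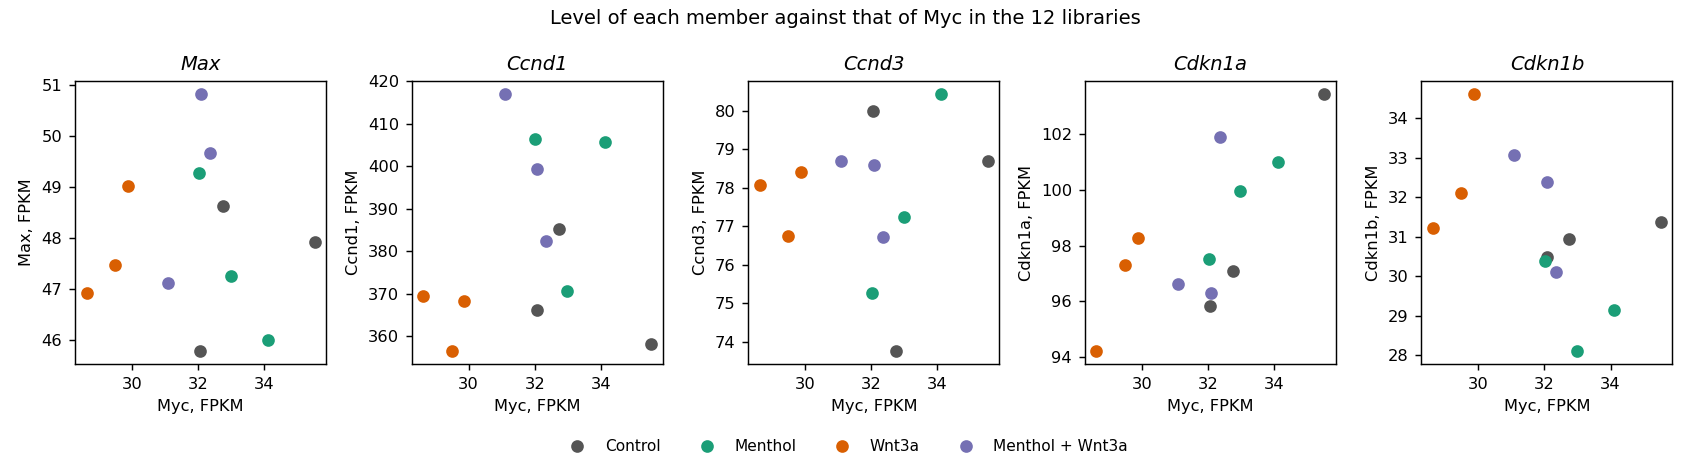
FPKM of each of 5 genes (vertical axes, not starting at 0) against FPKM of *Myc* (horizontal axes). Each point is 1 of the 12 libraries, coloured by group. *Cdkn1a* is higher where *Myc* is higher (r = 0.73), and *Cdkn1b* lower (r = -0.50).

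Among all tested genes, those most like *Myc* over the 12 libraries were *Brd7*, a bromodomain subunit of a chromatin remodelling complex, with r = 0.96 (0.92 for deviations from group means), *Zfp646*, a zinc finger gene, with r = 0.92, *Ppp2r1a*, the scaffold subunit of protein phosphatase 2A, with r = 0.92, and *Pabpc4*, a poly(A)-binding protein, and *Nol6*, a nucleolar protein, each with r = 0.91. Those most opposite were *Lipa*, the lysosomal acid lipase, with r = -0.91, *Ssr1*, of the translocon of the endoplasmic reticulum, with r = -0.90, *Gng2*, a G protein subunit, with r = -0.89, and *Insig2*, a sterol sensor partner, and *Il33*, a cytokine, each with r = -0.88. They are the extremes of 11451 genes over 12 libraries, so values this far from 0 are what the choice selects.

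The partners of the Max network were looked at next. Of 9 genes 8 were tested, and *Mlx* was the highest, at 51.4 FPKM. None passed the adjusted p by limma in any comparison. *Mxi1* and *Mxd1*, repressive partners of Max, were the 2 of 8 genes with an unadjusted p under 0.05 for Wnt3a against control, beside 15.1% of all tested genes. *Mxi1* was at 12.5 ± 0.357 FPKM in control cells and 14.0 ± 0.644 with Wnt3a, a log2 difference of 0.16 (adjusted p = 0.141), and *Mxd1* was at 4.60 ± 0.227 and 5.09 ± 0.204 FPKM, a difference of 0.14 (adjusted p = 0.325). Of the other repressive partners, *Mxd3*, *Mga* and *Mxd4* differed for Wnt3a against control by -0.32, -0.056 and -0.033, and *Mnt* by 0.013. *Mnt* differed by -0.11 for menthol against control (adjusted p = 0.496 by limma) and by 0.14 for both stimuli against menthol (adjusted p = 0.482). The numbers of genes higher and lower were 5 and 3 for menthol and 4 and 4 for Wnt3a, each against control, 5 and 3 for both against Wnt3a, 7 and 1 for both against menthol, and 6 and 2 for both against control. Over all tested genes the same numbers were 5628 and 5823, 5913 and 5538, 5641 and 5810, 6018 and 5433, and 5943 and 5508, in the same order of comparisons, and the counts of the lists that follow are to be read beside them.

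Known target genes of Myc formed the largest list, with 26 genes tested of 27 named. The highest was *Ldha*, lactate dehydrogenase A, at 1423 FPKM. For Wnt3a against control, where *Myc* was lowest, 13 targets were higher and 13 lower, with a median log2 difference of 0.0003, beside 5913 higher and 5538 lower and a median of 0.0042 over all tested genes. None passed the adjusted p by limma and 6 of 26 had an unadjusted p under 0.05, 3 in each direction, beside 15.1% of all tested genes. *Cad*, the enzyme that starts pyrimidine synthesis, was at 22.9 ± 0.348 FPKM in control cells, 20.5 ± 0.930 with Wnt3a and 21.9 ± 0.343 with both. Its difference for Wnt3a against control was -0.16 (adjusted p = 0.0916, passing in 2 of 21 other settings). *Polr1b*, a subunit of RNA polymerase I, and *Rrs1*, of ribosome assembly, were also lower, by -0.17 (adjusted p = 0.22) and -0.14 (adjusted p = 0.199). In contrast, *Ldha* was higher by 0.12 (adjusted p = 0.105), *Rcl1*, of ribosomal RNA processing, by 0.15 (adjusted p = 0.138), and *Nme1*, a nucleoside diphosphate kinase, by 0.10 (adjusted p = 0.292).

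In the comparisons with the menthol libraries the counts were less even. For menthol against control 21 were higher and 5 lower, with a median of 0.033 (all genes, 5628 and 5823, median -0.0016), although *Myc* itself differed by only -0.017 there. *Shmt2*, of mitochondrial serine metabolism, was at 63.8 ± 0.680 FPKM in control cells and 70.1 ± 3.37 with menthol, a difference of 0.14 (adjusted p = 0.253). For both stimuli against menthol 7 were higher and 19 lower, with a median of -0.034 (all genes, 6018 and 5433, median 0.0043). These 2 comparisons share the menthol libraries, so a high level of the targets there enters both. For both against Wnt3a 14 were higher and 12 lower, and for both against control 13 were higher and 13 lower, with *Rcl1* higher by 0.18 (adjusted p = 0.0759). *Ncl* and *Npm1*, abundant nucleolar targets at 543.4 and 699.4 FPKM, and *Odc1*, of polyamine synthesis, at 66.8 FPKM, had adjusted p of at least 0.592 by limma in every comparison.

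**Figure D5:**
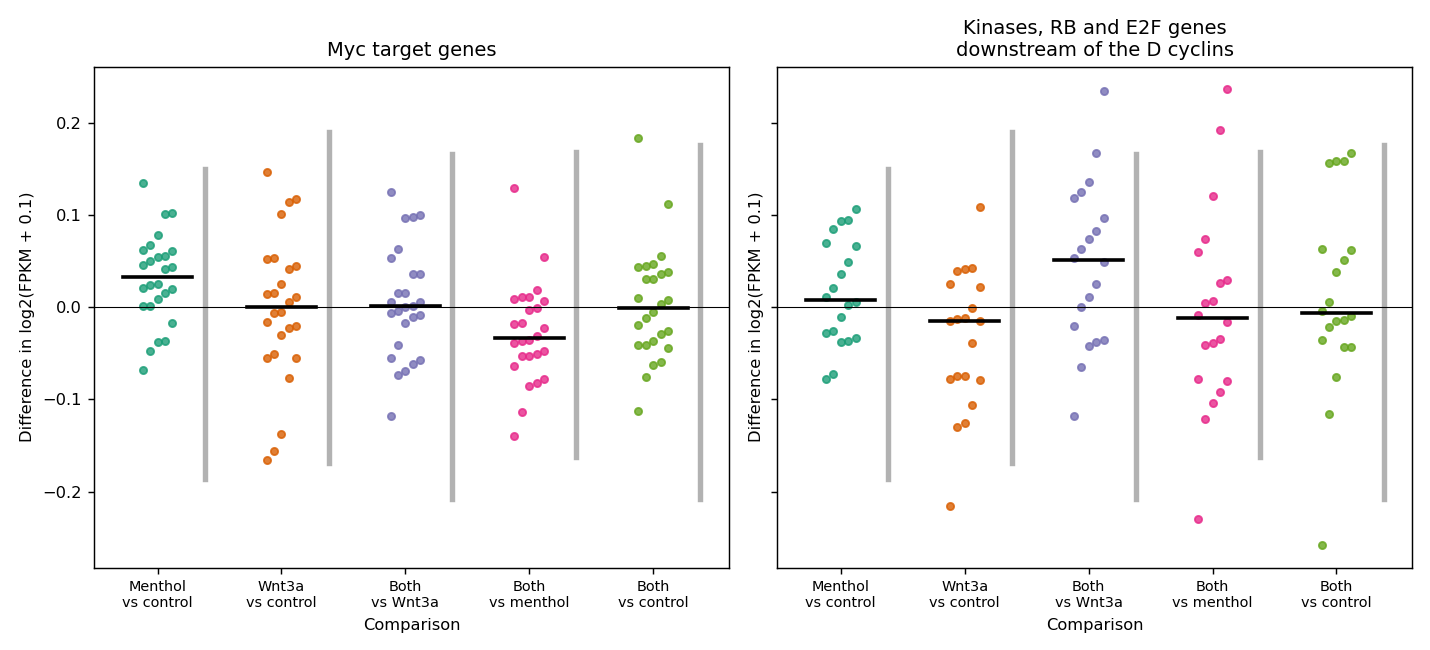
Differences in log2(FPKM + 0.1) between groups (vertical axes) of the 26 Myc target genes (left) and the 20 kinase, RB and E2F genes (right), by comparison. Points are genes, black bars list medians, and grey bars run from the 5th to the 95th percentile of all 11451 tested genes. Most points lie within the grey bars, and the medians run from -0.034 to 0.051.

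Downstream of the D cyclins, 20 genes of the kinases, the RB family and the E2F factors were tested, and none passed the adjusted p by limma. *Cdk4*, which is also on the Myc target list, was the highest at 143.2 FPKM, and *Rb1* was at 3.98 FPKM. For Wnt3a against control 6 were higher and 14 lower, with a median of -0.015, and for both stimuli against Wnt3a 13 were higher and 7 lower, with a median of 0.051, beside -0.0017 over all genes. In the latter, 5 of 20 had an unadjusted p under 0.05, beside 14.5% of all tested genes. *Cdk6* was at 16.0 FPKM with Wnt3a and 17.9 FPKM with both, a difference of 0.17 (adjusted p = 0.192), and *E2f5*, *E2f4* and *Ccne1* were higher by 0.14, 0.097 and 0.23. *Cdk4* went the other way, at 149.2 and 137.4 FPKM, a difference of -0.12 (adjusted p = 0.272). The 2 kinases that pair with cyclin D1 thus differed in opposite directions, neither past the threshold, and *Cdk6* passed by limma voom alone. For menthol against control 12 were higher and 8 lower, and for both against menthol and both against control 9 were higher and 11 lower. *E2f6*, a repressive E2F, differed by 0.24 for both against menthol (adjusted p = 0.263).

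Of the other CDK inhibitors, *Cdkn2c* (p18) was at 33.6 FPKM, *Cdkn2d* (p19) at 23.9 FPKM and *Cdkn1c* (p57) at 1.10 FPKM, all below *Cdkn1a* and the first near *Cdkn1b*. None of these 3 passed the adjusted p by limma, and *Cdkn2d* alone had an unadjusted p under 0.05 (beside 6.72% of all tested genes), for both stimuli against menthol, where it differed by 0.16 (adjusted p = 0.514). *Cdkn2a* and *Cdkn2b* are not analysed here.

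As *Cdkn1a* is a p53 target, 14 genes of that response were set beside it. None passed the adjusted p by limma, and the numbers higher and lower were 8 and 6 for menthol and 6 and 8 for Wnt3a, each against control, 9 and 5 for both against Wnt3a, 5 and 9 for both against menthol, and 6 and 8 for both against control. *Ccng1* was the highest at 194.6 FPKM, and *Mdm2*, the ubiquitin ligase of p53, was at 127.7 to 130.5 FPKM in the 4 group means. *Plk2*, a stress kinase, differed by -0.12 for Wnt3a against control (adjusted p = 0.174), and *Sesn2*, a stress sensor, by 0.15 for both against Wnt3a (adjusted p = 0.184).

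Of the genes that act on the turnover of the Myc protein, 5 were tested and none had an unadjusted p under 0.05 in any comparison by limma, beside 6.72 to 15.1% of all tested genes. *Gsk3b*, a kinase that phosphorylates Myc, was the highest of them at 23.3 FPKM. *Fbxw7*, the ubiquitin ligase that marks Myc for degradation, was at 2.69 FPKM in control cells and 2.43 FPKM with Wnt3a (log2 difference -0.14, adjusted p = 0.5). Protein was not measured.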

How the data were processed

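RNA of 12 ND7/23 libraries was sequenced, with groups taken from the sample labels. The submitters' processing notes name fastp, HISAT, HTSeq, R 3.2.0, DESeq2 and the build mRatBN7.2. Versions of the first 3 are not given in the sources used here. The FPKM values that the authors deposited, 1 column per library, are scaled by gene length and mapped fragments, so a few abundant genes can shift all others. How mouse transcripts of the hybrid line were assigned is not known.

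Whole reads were recovered from the steps of the FPKM (all 21556 genes, tolerance 0.02, resting on 1 library for 1804 genes). Replicates differed beyond sampling noise (chi-square per gene 3.48 to 7.27). A count of 0 allows 3 reads, for counting error only. limma 3.58.1 in R 4.3.3 was run on log2(FPKM + 0.1), with all 4 groups in 1 fit, a variance trend, no fold threshold and no replicate block, and was tested on simulated data. This scale understates the change of low genes.

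The genes and lists were chosen with earlier results of these data known. Named by rule are all 9 genes, list genes past the adjusted p, each list's highest gene, and the 5 genes most like and most opposite to *Myc*. Other list genes were named after their values were seen. *Tert*, *Huwe1* and *Myog* are not analysed here. Some list genes are not reported here and were left out of the list counts. Alternatives were pseudocounts of 0.01 and 1, a minimum mean of 1 FPKM or none, median centring, the replicate block, limma voom, no trend, fits of only the groups compared, and leaving out each library.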

Additional observations from a re-analysis of the deposited data

How the results depend on the processing

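The count of tested genes past the adjusted p stayed at 0 of 5 in every comparison under every alternative run except limma voom. This held for the replicate block too (0 in all 6). Of the 5, limma voom called only *Ccnd1*, and only for both stimuli against Wnt3a. The share of all tested genes that limma voom called is not given here. Whether the replicate numbers pair the libraries was not settled. The 18 pairs with the same number correlated at -0.055 to 0.15, 1 of them over 0.1. Their median was 0.013, beside -0.0065 for other numbers, and 7 of 12 libraries correlated best with their own number. With the replicate block, the adjusted p of *Ccnd1* by limma was 0.0861 for both against Wnt3a and 0.278 for menthol against control. Of the 15 differences of *Ccnd1*, *Cdkn1b* and *Myc*, leaving out 1 library turned the sign of 4 on the log2 scale: *Ccnd1* for Wnt3a against control ranged from -0.042 to 0.011 (above 0 without control replicate 2), *Ccnd1* for both against menthol from -0.024 to 0.051 (below 0 without menthol replicate 1, -0.024, or without replicate 2 of both, -0.011), *Cdkn1b* for both against Wnt3a from -0.067 to 0.0071 (above 0 without Wnt3a replicate 2, 0.0071, or replicate 1 of both, 0.0046), and *Myc* for menthol against control from -0.046 to 0.027 (above 0 without control replicate 1, 0.027, or menthol replicate 3, 0.0056). Of the 15 differences of *Max*, *Ccnd3* and *Cdkn1a*, which lay near 0, leaving out 1 library turned the sign of 11, within -0.053 to 0.083, and their lowest adjusted p under any alternative was 0.484. Over all alternatives *Myc* ranged from -0.22 to -0.14 for Wnt3a against control and from 0.10 to 0.14 for both against Wnt3a. Of the Myc targets, *Cad* passed for Wnt3a against control by limma voom, with *Ldha*, and without Wnt3a replicate 3. With 3 libraries a group, intervals of about 0.1 on either side on the log2 scale limit what could be seen.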
